A study of Mus musculus with 37 samples.

Results

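Primordial germ cells (PGCs) of mouse embryos that had lost Dnmt1 were compared between the embryonic stages E10.5 and E11.5, which are 1 day apart by plug date. The comparison used every knockout library with values at these stages: 13 of the 37 samples in the series, 10 at E11.5 (6 female, 4 male) and 3 at E10.5 (2 female, 1 male). The knockout libraries are called DCKO, as in the labels, which give their genotype as Dnmt1 -/-. The embryos came from mothers homozygous for the Oct4-IRES-Gfp reporter with the floxed allele Dnmt12lox, mated with fathers carrying Blimp1-Cre, a driver that is active in germ cells from their specification and also in some other embryonic cells. The labels give the genotype of the comparison libraries as wild type: 8 at E11.5 and 4 at E10.5, with equal numbers of each sex, named controls here. Reporter and sort were shared by all groups: GFP-positive cells were collected, RNA was extracted with a micro column kit and amplified with the Ovation RNA-Seq V2 kit, and libraries were made with the Encore Rapid kit. The 12 samples of a later stage were not analysed here. Whether each library came from its own embryo is not stated, so every p-value measures the spread between these libraries, which may be technical in part. The titles carry a number that 4 pairs of DCKO libraries of a stage share, whose meaning the labels do not give. Libraries sharing it had a median correlation of 0.84, and the tests do not use it. With it as a random block, the consensus correlation was 0.344 in the test between the knockout stages, where the count of passing genes stayed at 3.

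PGCs are the embryonic precursors of eggs and sperm. They migrate through the hindgut to the genital ridge and reprogram their genome on the way, losing most DNA methylation by dilution at replication and by active removal. Dnmt1 copies methylation to the newly made strand, and a set of germline genes such as Dazl is held silent by promoter methylation until PGCs reach the gonad. The days compared here span arrival in the gonad and the usual onset of those genes.

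The values were reads per kilobase of transcript and library size (RPKM), 1 table for each stage. The tables may have been normalized separately, so libraries were rescaled by the median of ratios, with factors from 0.93 to 1.07, and any difference between stages cannot be told apart from a difference between tables. Between 8607 and 11903 genes reached 1 RPKM in a DCKO library. Pearson correlations of log2 values across genes had a median of 0.786 within E10.5, 0.77 within E11.5 and 0.772 between the stages, so libraries of different stages were about as alike as libraries of the same stage. The library E11.5 male DCKO 1 stood apart on the first principal component (24.3% of the variance), with a mean correlation of 0.615 with its own stage. E11.5 male DCKO 4 stood apart on the second (14.1%) and had the fewest genes. E10.5 female DCKO 1 lay farthest the other way on the second component. It also had the highest summed RPKM of the DCKO libraries, 1121158, and a mean correlation of 0.762 with its own stage.

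All 9 germ cell markers (Pou5f1, Dppa3, Prdm1, Tfap2c, Nanos3, Dnd1, Kit, Alpl, Ifitm3) had a median above 1 RPKM at both stages, and their summed level was 3240 to 3950 RPKM at E10.5 and 1620 to 4410 RPKM at E11.5. The mean log2 value of the germ cell markers was 6.68 to 7.18 at E10.5 and 5.38 to 6.86 at E11.5. Between the stages 8 of the 9 had a log2 difference below 0, with a median of -0.70. That median was -0.17 without the library of each stage highest in other cell type markers, and controls had -0.65. Markers of other cell types differed much between libraries. The 13 mesenchyme markers summed to 1.27 to 558 RPKM at E11.5, highest in male DCKO 1, and no E10.5 library reached the E11.5 median of 29.8 RPKM. The 12 endothelial markers ran from 23.3 to 44.6 RPKM and from 4.43 to 354 RPKM. The 11 gonadal somatic markers ran from 0.85 to 3.68 RPKM and from 0 to 107 RPKM, with Amh at 0 in all 13 libraries. Erythroid markers reached 2180 RPKM at E10.5 and 1670 RPKM at E11.5, and were concentrated in few libraries: E10.5 male DCKO 1 and E11.5 female DCKO 4 and 6 had mean log2 values of 2.78, 3.12 and 3.20, and the other 10 DCKO libraries at most 0.586. Gata1 was at 0 in all 13. Among controls, E11.5 male control 3 stood apart, with the highest mean of other cell type markers (2.97) and the lowest of germ cell markers (3.87) of all 25 libraries. Of the remaining lists, the 12 macrophage markers (C1qa and Aif1 at 0 in all 13), the 11 gut and liver markers (Apoa1 and Ttr at 0), the 10 neural, 6 mesonephros and 6 muscle markers reached at most 20.3 RPKM at E10.5 and 71.9 RPKM at E11.5. In bulk RNA, fewer cells of a type and less RNA per cell cannot be told apart.

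**Figure D1:**
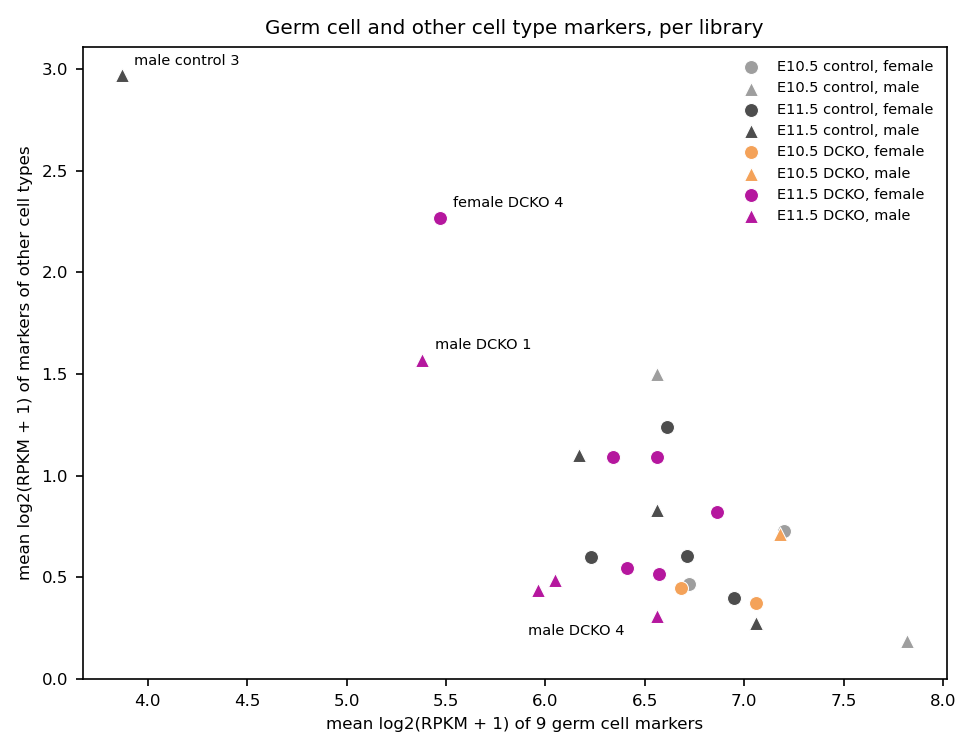
Mean level of 9 germ cell markers (horizontal axis) against the mean of all markers of other cell types (vertical axis) in each of the 25 libraries, both as log2(RPKM + 1) after rescaling; circles are female and triangles male libraries. The E10.5 DCKO libraries lie between 0.376 and 0.712 on the vertical axis and the E11.5 DCKO libraries between 0.311 and 2.27, with female DCKO 4 highest.

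Dnmt1 checked the labels. It was 29.6, 20 and 14.9 RPKM in the E10.5 DCKO libraries and 13 to 59.4 RPKM at E11.5, with a median of 23.1 RPKM. Controls held 74.1 to 107 RPKM at E10.5 and 72.9 to 296 RPKM at E11.5, so no DCKO library reached the lowest control of either stage. Within the knockout, the stages overlapped: the mean was 21.5 ± 7.43 RPKM at E10.5 (SD, n = 3) and 29.6 ± 16.3 RPKM at E11.5 (SD, n = 10), a log2 difference of 0.33 (SE 0.48). The two-sided exact permutation p over all 286 choices of 3 libraries was 0.5. The deposited value covers the whole gene, and which exons are removed is not given in the sources used here.

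Across the 12049 genes tested between the stages, 3 passed a limma adjusted p under 0.05, which is 0.0249% of them, and each was listed at 0 in all 10 E11.5 libraries. Npm1, which encodes the abundant nucleolar protein nucleophosmin, had 3310 to 5390 RPKM in the E10.5 DCKO libraries, 0 in all 10 E11.5 DCKO libraries and 2110 to 6120 RPKM in the E11.5 controls of the same table (adjusted p = 3.88e-11). Spata5 had 39.2 to 54.1 RPKM at E10.5 and 0 in all E11.5 libraries, the 8 controls included (adjusted p = 1.18e-05). Zc3h7a had a lowest value of 8.3 RPKM and a median of 8.59 RPKM in the E10.5 DCKO libraries and 0 in every other group (adjusted p = 0.00394), and its adjusted p was 0.0655 without E10.5 female DCKO 1. A value of exactly 0 may stand for an estimate that failed: 3393 genes had a median of 20 RPKM or more over the 13 libraries, and 20 of them were listed at 0 in some library. No fold is given for these genes. The 3 passing genes reached the minimum mean of 1 RPKM for testing only through the E10.5 libraries, so their direction is not a result.

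No gene with a value above 0 in both stages passed. By limma 531 genes had an unadjusted p under 0.05 (4.41%), 213 higher at E11.5 (1.77%) and 318 lower (2.64%). Every E11.5 library lay above every E10.5 library for 39 genes (0.324%) and below for 41 (0.34%), together 0.664%, and 53.1% of all genes had a difference above 0, on the log2(RPKM + 1) scale used throughout. Leaving out E10.5 female DCKO 2 brought the count of passing genes to 6, 3 of them not listed at 0 in a stage. Differences below are therefore given with their values. In this test of the 13 libraries, short RNA genes apart, the limma adjusted p was 0.317 for Marveld3, 0.758 for Jdp2 and at least 0.947 for every other gene named below that had values above 0 in both stages.

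Dazl, the RNA-binding protein that licenses PGCs for gametogenesis, was the germline gene that separated the stages upwards. It was 36.4, 74.5 and 78.8 RPKM at E10.5 and 87.6 to 194 RPKM at E11.5, with a median of 141 RPKM, so all 10 later libraries lay above all 3 earlier ones. The log2 difference was 1.08 (SE 0.33), and the exact permutation p of this single gene was 0.0035, the smallest that 286 choices allow. On within-library percentiles the permutation p was 0.01. Without E10.5 female DCKO 1 the difference of means was 0.75, with a permutation p of 0.03. Dazl was chosen because earlier results of these data pointed to it. In controls it ran from 4.24 to 30.9 RPKM at E10.5 and from 4.5 to 81.8 RPKM at E11.5, a log2 difference of 1.41. The knockout difference minus the control difference was -0.32 (SE 0.78, limma adjusted p = 1) and turned to 0.10 without E10.5 female control 1.

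The upstream sequences of Dazl and of Mael, a piRNA pathway protein and the next germline gene described, are shown because Dnmt1 maintains methylation at CG dinucleotides. They are the 250 bases before the RefSeq start on GRCm38.p6, 5′ to 3′, with capitals at each CG dinucleotide. Dazl lies on the minus strand at chr17:50293621-50293870 and Mael on the minus strand at chr1:166238745-166238994.
Dazl: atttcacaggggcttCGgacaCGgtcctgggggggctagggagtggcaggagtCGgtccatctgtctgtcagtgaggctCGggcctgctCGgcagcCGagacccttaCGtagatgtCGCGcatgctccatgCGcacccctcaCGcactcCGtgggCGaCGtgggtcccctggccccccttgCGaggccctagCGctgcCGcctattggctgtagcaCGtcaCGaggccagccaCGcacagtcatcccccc
Mael: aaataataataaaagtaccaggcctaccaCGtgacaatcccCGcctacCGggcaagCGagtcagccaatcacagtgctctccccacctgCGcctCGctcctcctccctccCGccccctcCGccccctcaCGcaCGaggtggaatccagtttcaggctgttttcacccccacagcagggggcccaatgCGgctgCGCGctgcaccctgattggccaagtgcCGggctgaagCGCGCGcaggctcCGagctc
The Dazl window holds 20 CG dinucleotides and the Mael window 18, numbers reached by 17.9% and 21.7% of all 32851 RefSeq windows of this length, whose median was 6. Of the 35 tested genes in the list of germline genes held silent by methylation, 31 had a window. The highest count over the windows of each gene was taken, which gave 4 to 31 CG and a median of 15. The E-box CACGTG, the same on both strands and overlapping a CG, was found for 13 of these 31 genes, Mael included and Dazl not. It was in 6.02% of all windows. The germline figures are per gene and those over all windows per window, so they are not counted alike. These letters are a description of the windows; methylation was not measured here.

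The germline genes held silent by methylation did not move together. Of the 35 tested, 15 had a difference above 0 and 20 below, with a median of -0.19 against 0.03 over the 11789 genes not listed at 0 in a stage; 3 had an unadjusted limma p under 0.05 in the upward direction, against 1.77% of those genes, and 1 in the downward direction, against 2.66%, and none passed the adjusted threshold. Without E11.5 male DCKO 1 and 4 together, 16 of 34 methylation-repressed germline genes lay above 0, with a median of -0.04. Without E10.5 female DCKO 2 the median was 0.08, and with the mean of other cell type markers as a covariate it was 0.06.

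Mael was 32.5, 21.7 and 11.8 RPKM at E10.5 and 22.5 to 93.3 RPKM at E11.5, with a median of 42.1 RPKM (log2 difference 0.97, SE 0.46). Tex101, a germ cell surface protein, was 0, 7.8 and 0.135 RPKM at E10.5 and 0.134 to 99.7 RPKM at E11.5. Both genes overlapped between the stages, Mael in a narrow band and Tex101 over most of the earlier range. Tex101 reached the minimum mean for testing mainly through the E11.5 DCKO libraries, so its direction is not a result. Smc1b, the meiotic cohesin subunit, was 4.5 RPKM in E10.5 female DCKO 1 but 38.6 and 29.6 RPKM in the other two, and 13.9 to 56.8 RPKM at E11.5, so its difference was 1.05 with that library and 0.11 without it. Sycp3, a lateral element of the synaptonemal complex, had a median of 17.9 RPKM at E10.5 and 30.9 RPKM at E11.5, and Ddx4, the germ cell RNA helicase also called Vasa, 39.7 and 55.7 RPKM.

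Pnldc1, the exonuclease that trims piRNA ends, separated the stages in the opposite direction. It was 70, 15.9 and 30.8 RPKM at E10.5 and 0.0633 to 14.1 RPKM at E11.5, with a median of 7.61 RPKM, so all 10 later libraries lay below the 3 earlier ones (log2 difference -2.29, SE 0.65). The highest Pnldc1 value was in E10.5 female DCKO 1, and with 1 library left out its difference ran from -3.03 to -1.83. Controls were 7.16 to 22.6 RPKM and 1.01 to 17.2 RPKM at the same stages. Hormad2, a meiotic axis protein, had a median of 6.02 RPKM at E10.5 and 3.73 RPKM at E11.5, and Gpat2, an acyltransferase of the piRNA machinery, 16.6 and 11.8 RPKM. The mean log2 value over the germline list was lowest, at 2.32, in E11.5 male DCKO 1, one of the libraries that stood apart, against 3.48 to 3.82 in the E10.5 libraries and a median of 3.73 at E11.5.

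**Figure D2:**
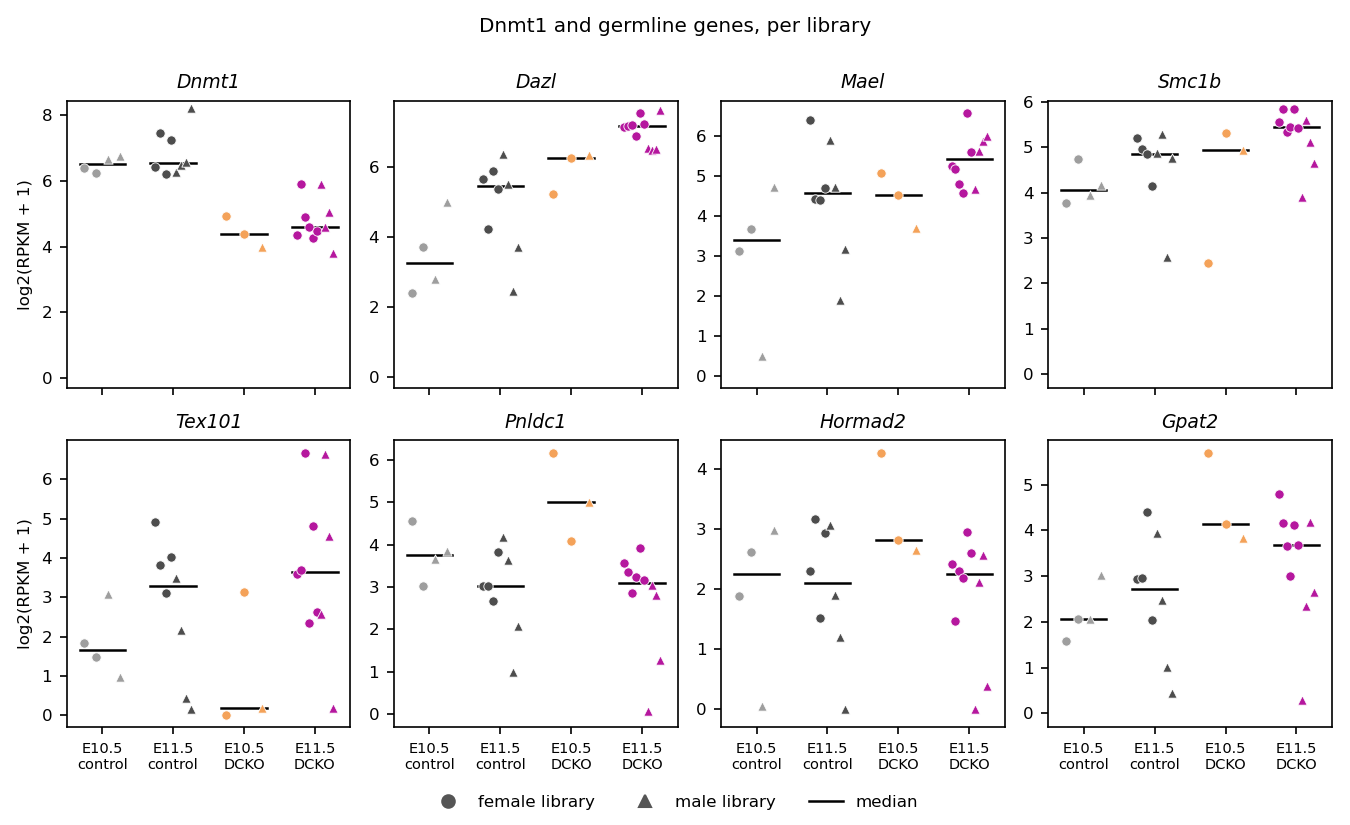
Deposited log2(RPKM + 1) of Dnmt1 and 7 germline genes (vertical axes) in every library, by stage and genotype (horizontal axis); circles are female, triangles male, and bars are group medians. The 10 E11.5 DCKO libraries lie above the 3 E10.5 DCKO libraries for Dazl and below them for Pnldc1, and overlap them for the others.

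The related lists were also mixed. Of 16 meiotic prophase genes 10 had a difference above 0 (median 0.19). Syce3, a small protein of the synaptonemal complex, ran from 0 to 0.971 RPKM at E10.5 and from 0 to 214 RPKM at E11.5. Syce3 reached the minimum mean mainly through the E11.5 DCKO libraries, so its direction is not a result. Of 17 piRNA pathway genes 7 had a difference above 0 (median -0.18). That piRNA median was -0.01 without E11.5 female DCKO 6 and 0.17 with the mean of other cell type markers as a covariate. In controls, in the model of all 25 libraries, the medians were 0.29 for the germline list, 0.24 for meiotic prophase and 0.44 for the piRNA list. The difference of the differences had a median of -0.32 over 34 germline genes, with 9 above 0, and of -0.48 over 16 piRNA genes, with 2 above 0, where 51.8% of all genes lay above 0. Without E11.5 male control 3 the control medians were 0.47 for methylation-repressed germline genes and 0.65 for piRNA pathway genes, and the medians of the difference of differences -0.64 and -0.77. Without E11.5 male control 1 the germline control median was 0.09 and its difference of differences -0.15, and without E10.5 male control 1 the control median of the meiotic prophase genes was 0.00. For piRNA genes the largest was Tdrd1, a tudor protein, at -1.88 (limma adjusted p = 1); no member of either list passed. Both lists share Ddx4, Mael and other members, so these counts are not independent.

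Genes of germ cell identity and pluripotency had medians below 0. Of 11 germ cell specification genes 9 had a difference below 0. Their median was -0.60, -0.35 without E10.5 male DCKO 1 and -0.17 without the library of each stage highest in other cell type markers, and controls had -0.65, or -0.29 without E11.5 male control 3. Alpl, the alkaline phosphatase used to stain PGCs, was 71.4, 105 and 202 RPKM at E10.5 and 10.9 to 119 RPKM at E11.5, with a median of 38.3 RPKM (log2 difference -1.52, SE 0.58). Ifitm1, an interferon-induced membrane protein of early PGCs, was 431 to 612 RPKM and then 164 to 487 RPKM. Dppa3, a maternal factor that shields methylation, hardly differed, with medians of 1940 and 2330 RPKM.

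Of 28 pluripotency genes 16 lay below 0, with a median of -0.12 that became 0.18 without E10.5 male DCKO 1. Sox2 was 73.6, 27.1 and 40.2 RPKM at E10.5 and 12.5 to 31 RPKM at E11.5 (log2 difference -1.05, SE 0.42), and Nanog 64.3, 50.5 and 94.9 RPKM against 15.6 to 71.7 RPKM (-0.91, SE 0.43). Both are core transcription factors of the pluripotency network, and for both only part of the later libraries fell inside the earlier range. The highest Sox2 value was in E10.5 female DCKO 1, and with 1 library left out its difference ran from -1.48 to -0.7. Pou5f1, whose locus drives the sorted reporter, had medians of 96.4 and 58.3 RPKM. In controls the pluripotency median was -0.59, with 5 of 28 genes above 0; 22 of 28 genes had a difference of differences above 0 (median 0.40), and none passed. Without E11.5 male control 3, 9 of 28 pluripotency genes lay above 0 in controls (median -0.33) and 17 of 28 for the difference of differences (median 0.16).

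Among chromatin genes, 11 of the 14 genes of the methylation machinery lay above 0 (median 0.23), and 7 of 14 without E10.5 female DCKO 1 (median -0.01). Mbd2, a reader of methylated DNA, was 0.0557, 2.16 and 5.93 RPKM at E10.5 and 2.65 to 56.1 RPKM at E11.5 (log2 difference 2.09, SE 0.73). Mbd2 reached the minimum mean mainly through the E11.5 DCKO libraries, so its direction is not a result. Dnmt3a, a de novo methyltransferase, had medians of 8.95 and 12.6 RPKM, and Uhrf1, the partner that brings Dnmt1 to replicated DNA, 14.8 and 14.5 RPKM. Of 16 genes of Tet oxidation and base excision repair 7 lay above 0 (median -0.15). Tet1, the main methylcytosine oxidase of PGCs, was 51.5 to 63.3 RPKM and 36.5 to 132 RPKM. The ligase Lig3 had medians of 16.2 and 29.7 RPKM, the glycosylase Tdg 4.44 and 9.72 RPKM and the polymerase Polb 29.8 and 17.1 RPKM. Polb differed from controls in its stage difference by -2.73 (SE 0.92, limma adjusted p = 1).

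Of 23 genes of repressive chromatin 13 lay above 0 (median 0.06), and Scml2, a Polycomb protein of the germ line, had a median of 11.4 RPKM at E10.5 and 18.4 RPKM at E11.5. Of 38 imprinted genes, whose parental methylation PGCs erase, 26 lay above 0, with a median of 0.62 against 0.03 over all genes and of 0.02 with the mean of other cell type markers as a covariate. Without E11.5 female DCKO 4 and male DCKO 1, the libraries highest in markers of other cell types, 20 of 35 imprinted genes lay above 0, with a median of 0.15. Igf2r, a growth factor receptor expressed from the maternal copy, was the only member whose stages did not overlap upwards, with 17.8, 21.6 and 20.8 RPKM at E10.5 and 23.2 to 82.7 RPKM at E11.5. Mest, expressed from the paternal copy, was 4.37 to 12.8 RPKM and 4.28 to 450 RPKM. Phlda2, a growth restrictor expressed from the maternal copy, was 267, 35.2 and 145 RPKM at E10.5 and 0 to 81.5 RPKM at E11.5. Its log2 difference was -3.02 (SE 1.02), and its control difference was -2.72. The highest Phlda2 value was in E10.5 female DCKO 1. With 1 library left out the knockout difference ran from -4.16 to -2.1. Commd1, a copper metabolism protein that hosts an imprinted gene, had medians of 19.4 and 37.3 RPKM, and its difference of differences was 2.26 (limma adjusted p = 1).

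The X-linked Rhox, Mage and Xlr genes, many of which have close copies that can share reads, split 9 above and 13 below 0. Rhox6 and Rhox9, homeobox genes of the reproductive tract, were the most abundant: Rhox6 was 1010, 421 and 446 RPKM at E10.5 and 106 to 457 RPKM at E11.5 (log2 difference -1.29, SE 0.38), and Rhox9 729 to 1570 RPKM and 155 to 1180 RPKM. The highest Rhox6 value was in E10.5 female DCKO 1, and with 1 library left out its difference ran from -1.68 to -0.97. Maged1 was 90.8, 154 and 144 RPKM at E10.5 and 141 to 407 RPKM at E11.5.

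The genes with the smallest p among those whose rescaled values did not overlap were a mixed set. In the upward direction, Dync1i2, an intermediate chain of the dynein motor, was 24.7 to 116 RPKM at E11.5, with a median of 45.6 RPKM, and every E10.5 library lay below that range, with a median of 18.8 RPKM (log2 difference 1.85, SE 0.45). Cnep1r1, the regulatory subunit of a nuclear envelope phosphatase, was 7.71 to 26.5 RPKM and then 26.4 to 91.9 RPKM, with a median of 39.4 RPKM. The Cnep1r1 groups met at 26.4 and 26.5 RPKM before rescaling. Its stage difference was 1.52 in the knockout and -0.56 in controls, and the difference between these was 2.1 (SE 0.53, limma adjusted p = 1).

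Another 3 genes lay higher at E11.5. Gtf3c6, a subunit of the polymerase III factor TFIIIC, was 19.8 to 30.3 RPKM and then 40.4 to 280 RPKM. Hdgfrp3, a chromatin-binding growth factor relative, was 0.14 to 1.18 RPKM and then 2.72 to 11.3 RPKM, and Ccng2, an atypical cyclin tied to cell cycle arrest, 0.323 to 0.71 RPKM and then at least 1.42 RPKM, with a median of 3.53 RPKM. The last 2 genes are low, so their differences of 1.91 (SE 0.58) and 1.74 (SE 0.57) on the log2(RPKM + 1) scale understate their ratios. Controls covered much of both ranges: E11.5 controls held 0.626 to 16.3 RPKM of Hdgfrp3 and 0.106 to 10.2 RPKM of Ccng2. Hdgfrp3 and Ccng2 reached the minimum mean of 1 RPKM for testing mainly through the E11.5 DCKO libraries, so their direction is not a result.

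Marveld3, a tight junction protein, had the smallest p of the genes not listed at 0 in a whole stage. It was 7.47, 9.52 and 14.2 RPKM at E10.5 and 0 to 3.17 RPKM at E11.5, with a median of 0.256 RPKM (log2 difference -2.96, SE 0.59). Controls held 0.368 to 7.96 RPKM at E10.5 and 0 to 15 RPKM at E11.5, so their ranges overlapped, and the difference of differences was -3.12 (SE 0.84, limma adjusted p = 1). With library weights the knockout difference passed (limma adjusted p = 0.00708). Marveld3 reached the minimum mean mainly through the E10.5 DCKO libraries, so its direction is not a result.

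Another 4 genes lay lower at E11.5. Jdp2, an AP-1 repressor, was 44.5, 2.79 and 2.72 RPKM and then 0 to 0.63 RPKM, and Klhl36, a Kelch adaptor of the ubiquitin system, 18.3, 2.86 and 1.14 RPKM and then 0 to 0.695 RPKM. Slc7a3, a cationic amino acid transporter, was 4.74, 1.97 and 4.88 RPKM and then 0 to 1.19 RPKM. Snrpc, the U1 snRNP C protein, was 272, 57.7 and 113 RPKM and then 6.14 to 48 RPKM. For Jdp2, Klhl36 and Snrpc the highest of the 3 earlier values was in E10.5 female DCKO 1. Klhl36 and Slc7a3 also had lower values in E11.5 than in E10.5 controls, with differences of -1.62 and -1.28. Jdp2, Klhl36 and Slc7a3 reached the minimum mean mainly through the E10.5 DCKO libraries, so their direction is not a result. They remained tested in 12, 12 and 10 of the 13 fits that left out 1 library.

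Mt1, a metallothionein that binds zinc and copper, was 31.4, 56.6 and 37.6 RPKM at E10.5 and 0 to 28.9 RPKM at E11.5, with a median of 0.644 RPKM (log2 difference -3.66, SE 0.99). Controls held 0 to 75.3 RPKM at E10.5 and 5.93 to 98.9 RPKM at E11.5, and the difference of differences was -4.66 (SE 1.42, limma adjusted p = 1). The neighbouring Mt2 was 159, 181 and 266 RPKM at E10.5 and 0.703 to 355 RPKM at E11.5, with a median of 101 RPKM, so its stages overlapped. The third tested gene of the list, the zinc exporter Slc30a1, had medians of 7.66 and 5.89 RPKM. All 3 tested genes of the list lay below 0 (median -1.37, the highest rounding to 0), but it is too short to describe as a group.

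Mt1 and Mt2 are shown with the 250 bases before their RefSeq starts because the pair shares zinc control through metal response elements. Mt1 separated the stages and Mt2 overlapped, but a difference between these genes was not tested. Both lie on the plus strand of GRCm38.p6, Mt1 at chr8:94178839-94179088 and Mt2 at chr8:94172368-94172617. Capitals mark the core of the metal response element, TGCACNC or TGCGCNC, on either strand.
Mt1: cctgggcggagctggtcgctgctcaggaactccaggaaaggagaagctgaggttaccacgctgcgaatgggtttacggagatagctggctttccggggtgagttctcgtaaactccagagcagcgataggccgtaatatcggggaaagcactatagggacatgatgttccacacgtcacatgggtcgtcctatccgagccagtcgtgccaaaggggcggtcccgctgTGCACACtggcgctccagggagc
Mt2: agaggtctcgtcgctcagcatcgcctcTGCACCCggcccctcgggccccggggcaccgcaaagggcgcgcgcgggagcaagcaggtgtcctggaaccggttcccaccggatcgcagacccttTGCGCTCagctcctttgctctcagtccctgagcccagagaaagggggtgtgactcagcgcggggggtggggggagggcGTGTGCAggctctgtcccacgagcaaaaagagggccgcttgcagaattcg
The window holds 1 match in Mt1 and 3 in Mt2, and 21.4% of all windows of this length hold at least 1. Only the bases before the annotated start were searched, so any match beyond it is not counted. These counts therefore do not compare the promoters of the pair. A match describes the letters only.

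**Figure D3:**
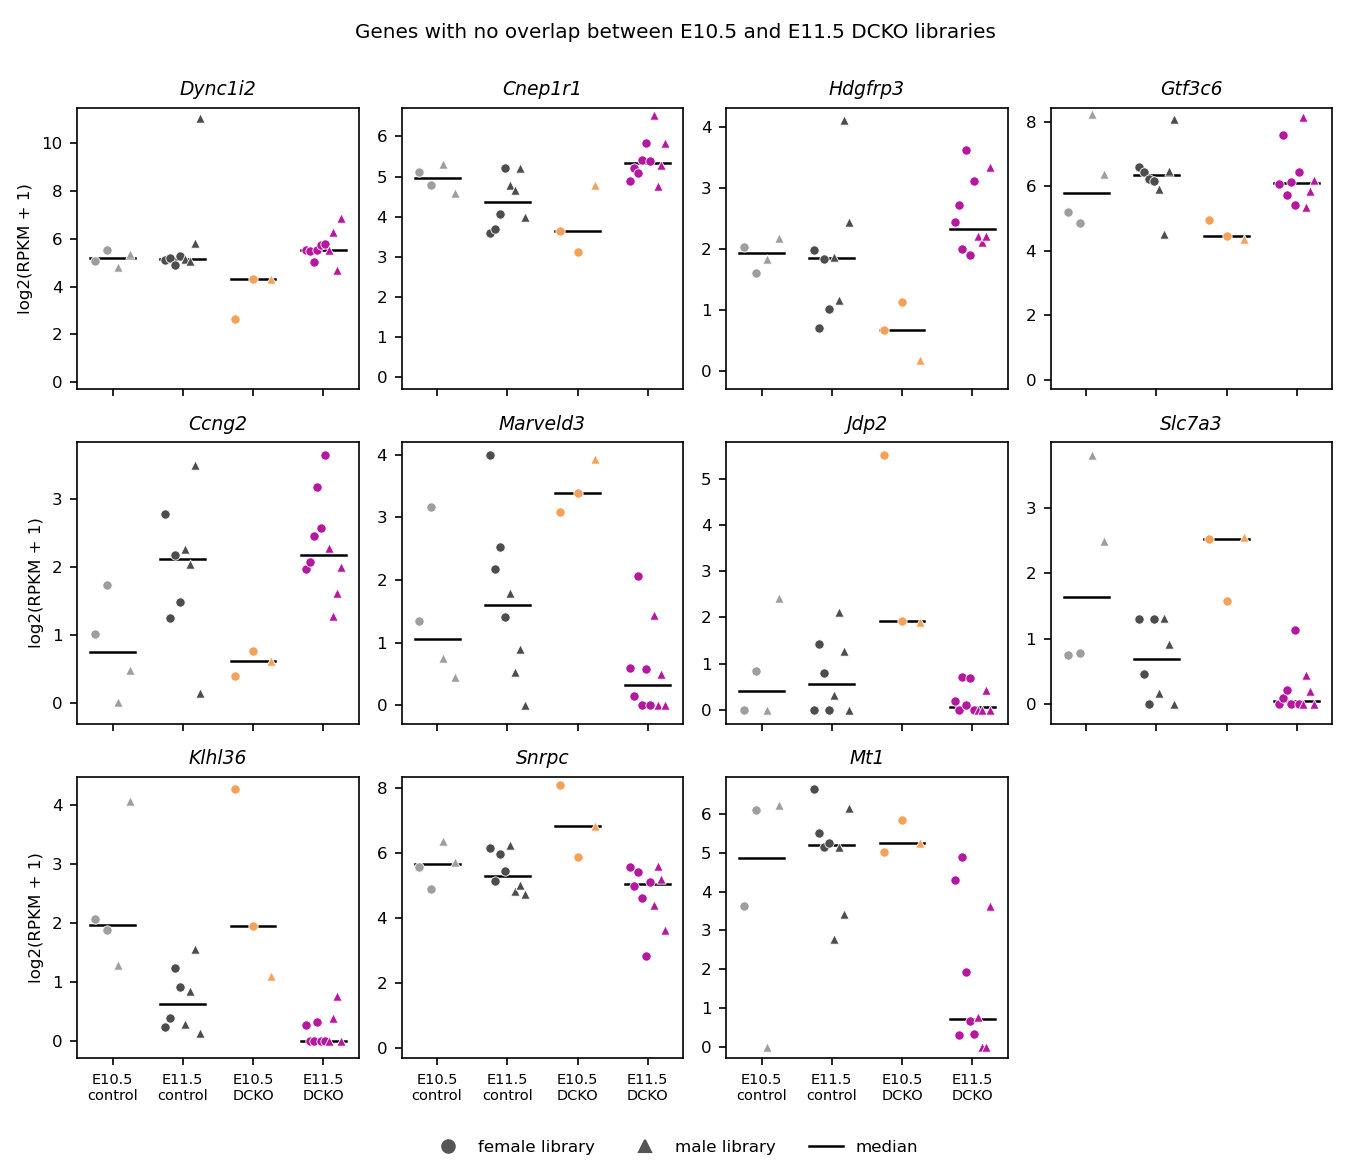
Deposited log2(RPKM + 1) (vertical axes) of the 11 genes other than Dazl with the smallest p among those whose rescaled values did not overlap between the DCKO stages, in every library by stage and genotype (horizontal axis); circles are female, triangles male, and bars are group medians. Mt1 has a median of 0.644 RPKM in E11.5 DCKO libraries, while E11.5 controls start at 5.93 RPKM.

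Metabolic and growth genes were described by list. Of 18 glycolysis genes 12 lay below 0 (median -0.42), and 3 of them had an unadjusted limma p under 0.05, where 2.66% of all genes not listed at 0 did in this direction. Slc2a3, a neuronal-type glucose transporter, was 153, 46.3 and 119 RPKM at E10.5 and 3.99 to 86.9 RPKM at E11.5 (log2 difference -1.82, SE 0.62). Its highest value was in E10.5 female DCKO 1, and with 1 library left out its difference ran from -2.59 to -1.07. Tpi1, the triose phosphate isomerase, was 21.1 to 77.6 RPKM and then 0.656 to 36.2 RPKM, and Hk1, a hexokinase, 11.9 to 35.8 RPKM and then 0.648 to 25.9 RPKM. Gapdh and Pgam1, also of this pathway, differed by -0.30 and 0.08. Without E10.5 male DCKO 1 the median of the glycolysis genes was -0.17, and controls had -0.31.

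Of 80 cytosolic ribosomal proteins 77 lay below 0, with a median of -0.39 that was -0.06 under quantile normalization and 0.01 without E10.5 female DCKO 1. Their summed level was 145000 to 343000 RPKM at E10.5, highest in that same library, and 94700 to 192000 RPKM at E11.5. Rpl29, of the large subunit, had 3410, 1670 and 1570 RPKM and then 725 to 1680 RPKM. Controls had a median of -0.41 for cytosolic ribosomal proteins, or -0.21 without E11.5 male control 3. The medians of the other energy and translation lists were -0.15 over 77 mitochondrial ribosomal proteins and -0.18 over 79 respiratory chain subunits. Without E10.5 female DCKO 1 these medians were -0.01 and 0.1. Mrpl33, of the mitochondrial large subunit, was 100 to 392 RPKM and then 266 to 1330 RPKM. Ndufs5, a complex I subunit, had 0, 0.0107 and 4.57 RPKM at E10.5 and 0.00483 to 64.7 RPKM at E11.5, a median of 35.3 RPKM. Ndufs5 reached the minimum mean mainly through the E11.5 DCKO libraries, so its direction is not a result.

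Replication-dependent histone genes, 16 of 47 above 0 (median -0.36), included Hist1h3d at 113, 9.88 and 2.57 RPKM and then 0 to 8.52 RPKM. Of 34 cell cycle genes 16 lay above 0 (median -0.01), and Cdt1, the replication licensing factor, was 149, 49.6 and 87 RPKM and then 3.39 to 69 RPKM. The 29 p53 targets and apoptosis genes had a median of 0.07, with Casp9, the initiator caspase, at 76.5, 9.3 and 13.2 RPKM and then 1.52 to 20 RPKM. For Hist1h3d, Cdt1 and Casp9 the highest value was again in E10.5 female DCKO 1. Cholesterol synthesis (15 genes, median 0.09), the amino acid stress response (9 genes, median 0.15), interferon genes (3 genes, median -0.08) and BMP and TGF-beta response genes (18 genes, median 0.14) lay close to 0. Named from them by smallest p were the sterol cyclase Lss, with medians of 5.49 and 7.26 RPKM, the stress factor Atf4, with 98.3 and 128 RPKM, the membrane protein Bst2, with 28.3 and 20.2 RPKM, and the homeobox gene Msx2, with 39.4 and 11 RPKM. Immediate early and heat shock genes were above 0 for 12 of 15. Their median was 0.40, 0.16 without E11.5 female DCKO 6 and 0.08 with the marker covariate, and controls had 0.62 for the immediate early and heat shock genes, or -0.04 without E10.5 male control 1. Zfp36, an mRNA decay factor of that list, had medians of 3.54 and 9.84 RPKM.

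Hox genes, which pattern the somatic body axis, were near 0 in most libraries. The minimum mean was reached by 23 of them, and 10 of these were listed at 0 in a whole stage. Because they were so low at E10.5, a Hox gene reached the minimum mainly through E11.5 libraries, so the direction of those that did is not a result. Hoxa3 was 0, 0.0226 and 0 RPKM at E10.5 and 0 to 12.6 RPKM at E11.5, with a median of 3.19 RPKM. The summed level of the Hox genes ran from 0.419 to 11.2 RPKM and then from 0.905 to 681 RPKM, highest in E11.5 male DCKO 1, the library that was also highest in mesenchyme markers.

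The same limit holds for mesenchyme and endothelial markers, whose summed levels are given above. Col1a2, a collagen chain, had 0.0314, 0.712 and 0 RPKM and then 0.0863 to 98.8 RPKM. The endothelial receptor Kdr had 0 to 0.237 RPKM and then 0 to 14.7 RPKM, highest in E11.5 male DCKO 1. The retinoic acid pathway, which starts meiosis in the gonad, had 7 of 11 above 0 (median 0.90). Its median was 0.42 without E11.5 female DCKO 4 and male DCKO 1, and 0.23 with the mean of other cell type markers as a covariate. Aldh1a2, its synthetic enzyme, had 0, 5.11 and 0.826 RPKM and then 0.758 to 112 RPKM, the highest in E11.5 female DCKO 4. Members as low at E10.5 as Aldh1a2 reached the minimum mean mainly through E11.5 libraries, so their direction is not a result. Of the migration and adhesion genes 7 of 17 lay above 0 (median -0.41, but 0.58 without E10.5 male DCKO 1), and N-cadherin, Cdh2, had 0.381, 5.55 and 0.0765 RPKM and then 0.546 to 29.4 RPKM. Cdh2 also reached the minimum mean mainly through E11.5 libraries, so its direction is not a result. The part of other cell types in these differences was not tested.

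Other marker lists had few described members. Of gonadal somatic markers Wt1, a transcription factor of the gonadal ridge, ran from 0 to 1.26 RPKM and then from 0 to 25.8 RPKM. Wt1 reached the minimum mean mainly through E11.5 libraries, so its direction is not a result. Pax8 of the mesonephros, Cd68 of macrophages, Cdx2 of the gut, Map2 of neurons and Actc1 of muscle had medians at E11.5 of 2.31, 1.65, 2.12, 1.08 and 0.307 RPKM. The near-identical haemoglobin genes Hba-a1 and Hba-a2, between which reads can be split, did not agree in any DCKO library that held either above 1 RPKM. Hba-a1 had 21.5 RPKM in E10.5 male DCKO 1 and at most 0.224 RPKM in the other DCKO libraries, and Hba-a2 had 17.5 and 54.4 RPKM in E11.5 female DCKO 4 and 6 and 0 in all 3 E10.5 libraries.

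**Figure D4:**
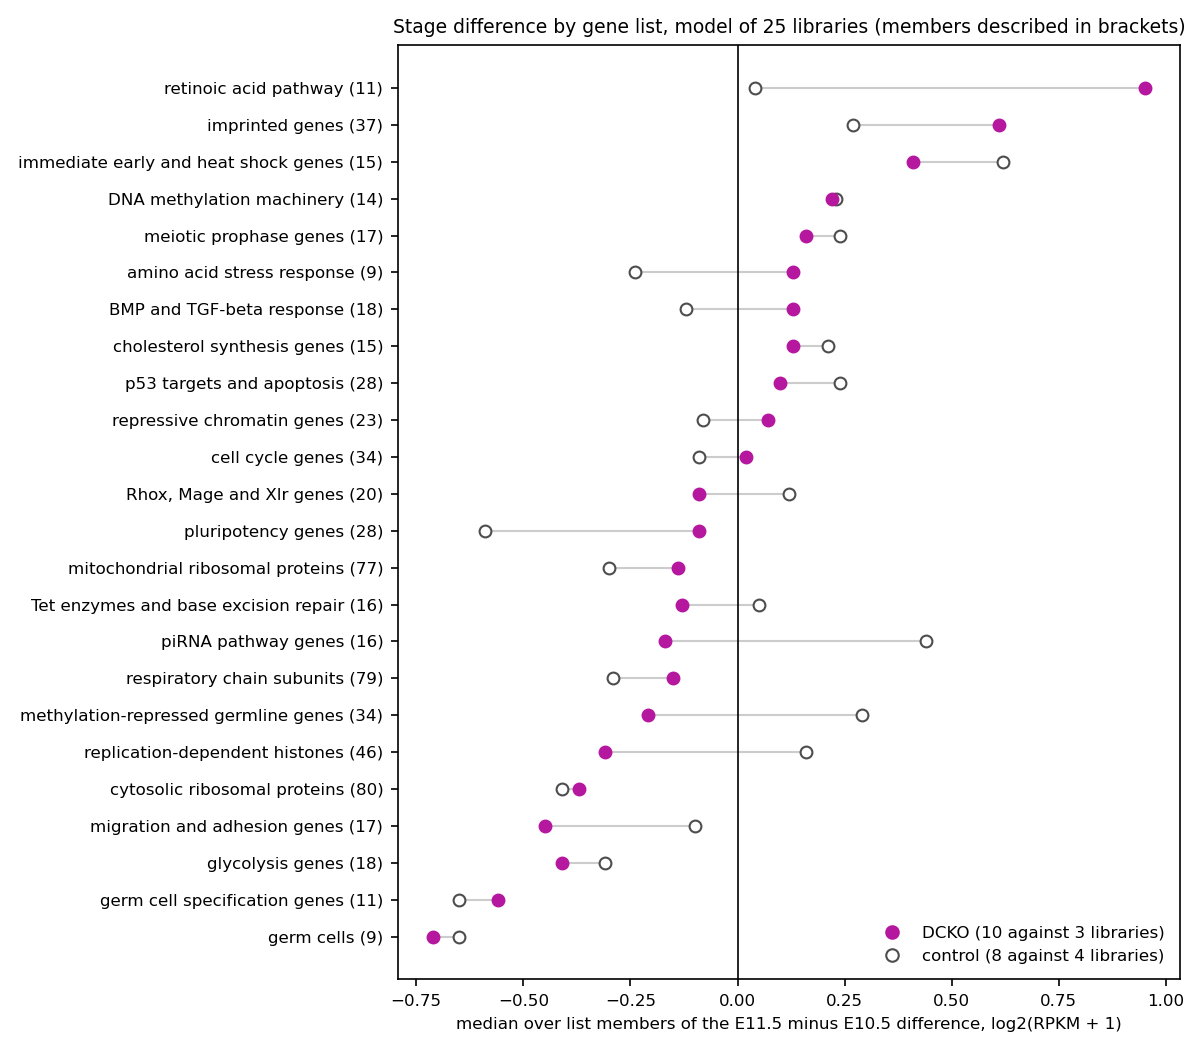
Median over list members of the E11.5 minus E10.5 difference (horizontal axis, log2(RPKM + 1)) for lists with at least 5 described members, Hox genes and markers of other cell types left out, in DCKO (filled) and control (open) libraries from the model of 25 libraries; brackets give the members. Germ cell markers are lowest in the knockout, at -0.71, and the germline and piRNA lists have medians below 0 in the knockout and above 0 in controls.

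Control PGCs gave the background for the same days. Of 12068 genes 2 passed in controls (0.0166%), Spata5 and Peak1, both listed at 0 in a whole group. Spata5 reached the minimum mean only through E10.5 libraries and Peak1 mainly through E11.5 controls, so their direction is not a result. An unadjusted limma p under 0.05 was found for 377 genes (3.12%), 189 of them higher at E11.5 (1.57%) and 188 lower (1.56%). Of all 12068 genes 52.8% lay above 0. Across these genes the stage differences of knockout and control had a Pearson r of 0.233 and a Spearman rho of 0.222, and 58.2% had the same sign. Genes are not independent replicates, and both differences span the same pair of tables. The difference of the differences equals the genotype difference within the E11.5 table minus that within the E10.5 table, so a shift common to a table drops out of it.

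For that difference 3 genes passed (0.0249%), and 346 had an unadjusted limma p under 0.05 (2.87%), 138 above 0 (1.14%) and 208 below (1.72%). The 3 passing genes were Npm1 (limma adjusted p = 3.2e-20), Zc3h7a (0.000117) and Peak1 (0.0382), each listed at 0 in a whole group. Zc3h7a reached the minimum mean only through the E10.5 DCKO libraries and Peak1 mainly through E11.5 controls. The direction of these 2 genes is therefore not a result. Peak1, a pseudokinase of the cytoskeleton, was 0 in all E10.5 controls and all E11.5 DCKO libraries, 2.18 to 34.9 RPKM in E11.5 controls and 0.131 to 3.71 RPKM in the E10.5 DCKO libraries. The Peak1 call was lost in 19 of the 25 fits that left out 1 library. Of genes with values in all groups, Cnep1r1 and the predicted gene Gm21057 had the smallest p. Gm21057 was 15.3, 0.14 and 37.6 RPKM in the E10.5 DCKO libraries, 0 to 1.14 RPKM at E11.5 and at most 4.56 RPKM in any control. Its difference was -3.53 (SE 0.90) and did not pass. Without E10.5 female DCKO 2, the library at 0.14 RPKM, the limma adjusted p was 0.00136. Gm21057 reached the minimum mean mainly through the E10.5 DCKO libraries, so its direction is not a result.

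Short RNA genes were set apart because RPKM rests on very short gene models. With them kept in the fit, 436 reached the minimum, 213 of these were listed at 0 in a whole stage, and 2 passed. Of the 12049 genes tested without them, 3 passed (0.0249%). Of those genes 7 were listed at 0 in all E11.5 and 253 in all E10.5 DCKO libraries. Mir293, of the miR-290 cluster of embryonic stem cells and early germ cells, was 1500, 1170 and 270 RPKM at E10.5, 17.5 RPKM in E11.5 female DCKO 1 and 0 in the other 9 (limma adjusted p = 2.84e-05). Its E11.5 controls ranged from 0 to 2430 RPKM. Mir669k was 25.5 to 123 RPKM at E10.5 and 9.34 RPKM in 1 library at E11.5 (limma adjusted p = 0.00469). Both passing genes were at 0 in 9 of 10 E11.5 libraries, and a 0 may stand for an estimate that failed. They reached the minimum mainly through the E10.5 libraries, so their direction is not a result. Mir294 of the same cluster as Mir293 was 170 to 1130 RPKM at E10.5, 0 in 6 of 10 E11.5 libraries and up to 1700 RPKM in the others. The mature 3p sequences from RefSeq are shown to tell the cluster mates apart, with the seed, bases 2 to 8, in capitals.
mmu-miR-293-3p: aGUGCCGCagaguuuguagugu
mmu-miR-294-3p: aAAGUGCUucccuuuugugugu
The seeds differ. Values over a hairpin gene in amplified RNA do not measure the mature miRNA.

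The E11.5 knockout libraries also differed among themselves. Between the 6 female and 4 male libraries, 1 of 12050 genes passed (0.0083%), Eif2s3y, a Y-linked translation factor (log2 female minus male -5.17, limma adjusted p = 0.00132), and 682 had an unadjusted p under 0.05 (5.66%), 346 higher in females (2.87%) and 336 lower (2.79%), and 52.3% lay above 0. The same difference was 3.89 for Xist, the RNA that coats the inactive X, and -3.34 for Kdm5d, -1.97 for Uty and -1.90 for Ddx3y on the Y, none of which passed. The E10.5 male library held 55.1 RPKM of Eif2s3y and the 2 female libraries at most 0.177 RPKM, matching the labels. Dazl differed between the sexes by 0.31 (SE 0.28, limma adjusted p = 0.877), with the lowest 3 of the 10 values in male libraries.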

How the data were processed

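RNA of sorted mouse PGCs was amplified and sequenced, and the authors deposited RPKM values for 24318 genes in 1 table per stage. TopHat2 2.1.0, Cufflinks 2.2.1 with Cuffdiff and the genome build mm9 are named in the submitters' processing notes, with no further settings. How many reads lie behind a value could not be recovered from the low values, so depth is unknown and intervals for counting error are left out.

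Each library was rescaled by the median of ratios. Values were tested as log2(RPKM + 1) with limma 3.58.1 in R 4.3.3, with an intensity trend and sex as a covariate, over genes whose mean reached 1 RPKM, short RNA genes left out, at a Benjamini-Hochberg adjusted p of 0.05. The stage test used the 13 DCKO libraries, the control and difference-of-differences tests all 25, and the sex test the 10 E11.5 DCKO libraries. The method was tested on simulated data. Dnmt1 and Dazl were also tested by exact permutation.

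Named were Dnmt1, Dazl, the 12 largest differences each way past the threshold with groups that did not overlap (filled by smallest p to 6 a direction, without short RNAs and genes listed at 0 in a stage), 1 to 3 members of each of 37 lists, the 2 smallest p or 4 largest in the other tests, and sex genes. Members outside this rule, such as Hormad2, Gpat2, Syce3, Tet1, Uhrf1, Dnmt3a, Gapdh, Pgam1 and Commd1, were added after their values were seen. The members and lists were chosen with earlier results of these data known. Alternatives covered the pseudocount (0.1 and 0.5), the filter (none, or 5 RPKM), the scaling, library weights, the sex term, the trend, marker covariates, the replicate block and each library left out. The 12 samples of the later stage were not analysed here.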

Additional observations from a re-analysis of the deposited data

Results flagged for a closer look

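In 11 of 85 groups of E11.5 DCKO values checked, 1 library lay far from the other 9 by Dixon's test, where chance gives about 1 in 20. Klhl36 was 0.695 RPKM in male DCKO 3. Slc7a3 and Hba-a1 were highest in female DCKO 5, at 1.19 and 0.152 RPKM. Casp9 was 20 RPKM in female DCKO 3. In male DCKO 1, Zfp36 was high at 138 RPKM and Bst2 low at 0.197 RPKM. That library was also lowest in the mean log2 value of the germline genes (2.3), the piRNA pathway (1.86) and the interferon genes (0.44). The mean log2 value of macrophage markers was highest, at 1.4, in female DCKO 3, and that of muscle markers, at 1.95, in female DCKO 2.

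The stage difference differed between DCKO and control libraries for 3 genes by limma. The adjusted p was 3.2e-20 for Npm1, 0.000117 for Zc3h7a and 0.0382 for Peak1, each listed at 0 in a whole group. Zc3h7a was above 0 only in the E10.5 DCKO libraries, so its direction is not a result.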

How the results depend on the processing

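The count of genes past the threshold between the DCKO stages was 3, and it was 6 with no filter on low values, 5 with short RNA genes kept, 0 with genes listed at 0 in a stage left out and 10 with library weights. Among genes not listed at 0 it was 0, and 3, 2 and 6 with no filter, with short RNA genes and with weights. Leaving out 1 library gave 2 to 6 genes, and 0 to 3 not listed at 0, both highest without E10.5 female DCKO 2. For the difference of differences the count was 3, and it was 1 at a mean of at least 5 RPKM, 0 with zero-listed genes left out and 7 with weights. Among genes not listed at 0 it was 0, and 1 with no filter, 4 with weights and 0 to 1 with 1 library left out, highest without E10.5 female DCKO 2. The sex count was 1, and it was 3 under quantile normalization, 10 with weights, 2 without the intensity trend and 1 to 2 with 1 library left out, highest without E11.5 male DCKO 1; the same counts held for genes not listed at 0. Library weights brought the adjusted p of Marveld3 to 0.00708 and of Cnep1r1 to 0.0241, and no filter that of Slc7a3 to 0.0383. The cause of these changes was not tested. The Dazl difference of differences ran from -0.86 to 0.10 with 1 library left out and was above 0 without E10.5 female control 1. Leaving out, after seeing the data, male DCKO 1 and 4 or female DCKO 4 and male DCKO 1 left the stage count at 3.

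Replicate numbers of the 2 stages share only a number, and deviations of same-numbered libraries did not correlate (-0.0472 and 0.0138). With the replicate block the counts were 2 between stages, 2 for the difference of differences and 0 for sex. The adjusted p of Zc3h7a was then 0.958 and that of Eif2s3y 0.864. With the title number as a random block the 3 counts were 3, 3 and 1, as without it. Depth is unknown, so low values carry no stated counting error.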
